A study of Rattus norvegicus with 9 samples.

Results

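Many transcription factors of the Hox, T-box and related families carry a record of where in the body a cell arose. The 65 genes of these families measured here are called positional regulators, although not all of them mark a position. They were chosen by name alone, as the array features whose single gene symbol is Hoxa, Hoxb, Hoxc, Hoxd, Tbx, Meis, Pbx, Pitx, Dlx, Msx, Lhx, Irx or the stem of Six3, followed by a number. Each gene is represented by its feature with the highest mean over the 9 arrays, and none of the 65 had more than 1 single-symbol feature. The 65 genes are part of 14506 genes tested, and 91 genes of the RefSeq rat annotation fit the same names. The other 26, among them Hoxa9 and Hoxc8, were not analysed here.

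Cultured cells of adult Sprague Dawley rats were profiled on Affymetrix Rat Gene 1.0 ST arrays, with 3 groups of 3 independent samples. SKP-derived Schwann cells were made from skin-derived precursors (SKPs) isolated from dorsal trunk skin, in Schwann cell growth medium, then passaged once and grown to confluence. Nerve Schwann cells came from dissociated sciatic nerve and were likewise passaged once and grown to confluence in that medium. Dorsal trunk SKPs, which are sphere-forming cells of the skin, were collected as spheres after 1 or 2 passages. The labels name no transgene or deletion in any group. The 3 SKP arrays are a reanalysis of samples deposited earlier, so batch and group cannot be told apart in any comparison with SKPs. The same holds for sphere culture against confluent culture. The tissue field of all 9 samples reads dermis, so the groups were taken from the sample titles.

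Hox genes lie in 4 clusters, and their order along a cluster matches the order of their expression along the body axis, so that a cell's set of active Hox genes marks its axial level. Pbx and Meis proteins are homeodomain partners that bind DNA together with Hox proteins. T-box, Iroquois (Irx), Msx and Dlx factors pattern limbs, body wall, face and skin. Pitx and Lhx factors act in pituitary and nervous system, among other places. Skin fibroblasts keep much of this positional expression in culture. Schwann cells of the trunk come from the neural crest, a transient embryonic cell population, whereas the dermis of the dorsal trunk comes from the mesoderm.

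The promoters of 4 genes on which the results turn are given first. As deposited, Meis1 had the largest fall and Pbx4 the largest rise in SKP-derived Schwann cells among the called genes with an entry in the RefSeq promoter table, and Hoxa7 and Tbx15 are the chosen markers with an entry. Each runs 5′ to 3′ on the gene's own strand, 250 bases before to 50 after the start, in assembly GRCr8. Meis1 lies at chr14:97495034-97495333 on the minus strand, Hoxa7 at chr4:82648192-82648491 on the minus strand, Tbx15 at chr2:189265123-189265422 on the plus strand and Pbx4 at chr16:19623872-19624171 on the minus strand. Capitals mark a match to the Hox-Pbx motif described next, which only Hoxa7 of the 4 holds, on the strand opposite to the gene.
Meis1: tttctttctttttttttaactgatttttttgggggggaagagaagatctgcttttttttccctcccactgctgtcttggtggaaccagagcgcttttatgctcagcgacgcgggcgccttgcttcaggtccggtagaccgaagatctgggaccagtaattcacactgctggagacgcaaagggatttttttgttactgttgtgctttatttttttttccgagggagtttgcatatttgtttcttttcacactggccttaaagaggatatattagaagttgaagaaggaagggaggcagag
Hoxa7: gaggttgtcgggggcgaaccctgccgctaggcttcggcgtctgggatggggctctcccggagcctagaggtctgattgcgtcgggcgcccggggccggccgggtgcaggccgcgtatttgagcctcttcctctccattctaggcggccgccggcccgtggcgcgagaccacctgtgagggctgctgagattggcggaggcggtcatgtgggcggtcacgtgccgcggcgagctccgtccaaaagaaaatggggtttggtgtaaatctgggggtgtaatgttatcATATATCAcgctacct
Tbx15: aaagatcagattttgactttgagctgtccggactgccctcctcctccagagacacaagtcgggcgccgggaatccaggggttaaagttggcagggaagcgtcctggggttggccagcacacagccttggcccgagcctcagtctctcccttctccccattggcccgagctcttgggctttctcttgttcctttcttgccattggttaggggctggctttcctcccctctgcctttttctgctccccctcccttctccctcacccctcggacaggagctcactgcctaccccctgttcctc
Pbx4: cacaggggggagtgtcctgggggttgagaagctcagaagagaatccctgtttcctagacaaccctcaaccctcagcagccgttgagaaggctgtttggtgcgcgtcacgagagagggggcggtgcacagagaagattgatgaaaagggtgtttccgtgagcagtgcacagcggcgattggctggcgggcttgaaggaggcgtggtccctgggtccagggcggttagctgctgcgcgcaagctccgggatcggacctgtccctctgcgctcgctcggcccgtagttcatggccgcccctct

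Of the 65 genes, 42 had an entry in that table, and 3 motifs were searched on both strands. The Hox-Pbx motif TGATNNAT was found in 3 of 42 of these promoters (7.14%), namely Hoxa2, Hoxa7 and Tbx6, against 8.82% of all 27457 promoters. The Meis and Tgif motif TGACAG was found in 9 of 42 (21.4%), against 18.8% of all. The first 2 shares were near those of all promoters. The T-box motif TCACACCT was found in 0 of 42, against 1.1% of all, and 42 promoters are too few to tell these shares apart. A match is a string of letters, not a shown site. The 42 promoters had a median GC content of 62.7%, against 52.3% over all promoters, and a median of 20 CpG dinucleotides, against 7. The Hoxa7 promoter held 29 CpG dinucleotides, Pbx4 20, Meis1 9 and Tbx15 8.

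The values are log2 levels as deposited, and 3 features of the arrays bear on every result. Array medians over all features were 6.33 to 6.44 in SKP-derived Schwann cells, 6.82 to 6.87 in nerve Schwann cells and 6.20 to 6.27 in SKPs, so the deposited values do not share a scale. For this reason a gene is called higher or lower only where limma's adjusted p was under 0.05 in the same direction under 4 scalings: as deposited, median centring, cyclic loess and quantile. In the nerve group 8 of the 65 genes, and 13.3% of all genes, had exactly the same value in at least 2 of the 3 arrays, against 0 of 65 and 0.11% in SKP-derived Schwann cells and 0 of 65 and 0.0896% in SKPs. The median SD of the 65 genes was 0.19 in SKP-derived Schwann cells, 0.08 in nerve Schwann cells and 0.23 in SKPs. Because all 9 arrays share 1 estimate of the spread, the narrow nerve spread enters every p-value. Of the 65 genes, 51 had a mean below that of the median gene, and no detection calls were used, so no gene is called present or absent.

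The labelled cell types were checked against their markers. Sox10, a transcription factor of neural crest and Schwann cells, was 3.96 higher in SKP-derived and 4.77 higher in nerve Schwann cells than in SKPs, and Erbb3, a neuregulin receptor of Schwann cells, 6.63 and 7.48 higher. All 10 measured of 12 Schwann cell markers were higher in both Schwann cell groups than in SKPs, with a mean level after cyclic loess of 10.18 to 11.07 in SKP-derived Schwann cells, 11.08 to 11.23 in nerve Schwann cells and 6.02 to 6.25 in SKPs. Between SKP-derived and nerve Schwann cells 1 of the 10 differed, Gfap, a glial filament, with a difference of -2.86. Of 11 dermal mesenchyme markers, 8 were lower in SKP-derived and 7 in nerve Schwann cells than in SKPs. Their mean level was 8.62, 10.37 and 9.41 in SKP-derived Schwann cells, 9.36, 9.96 and 8.87 in nerve Schwann cells, and 12.40, 12.51 and 10.72 in SKPs. Array 2 was thus the highest of both Schwann cell groups and array 3 the lowest of the SKPs. Macrophage and immune markers averaged 5.39 to 5.59 in SKP-derived Schwann cells, 5.50 to 5.57 in nerve Schwann cells, and 7.64, 6.47 and 5.73 in SKPs, with 1 of 10 (Cd14) lower in each Schwann cell group. Of the other lists, counted as higher and lower than in SKPs, keratinocyte markers had 1 and 0 of 5 in SKP-derived and 2 and 0 of 5 in nerve Schwann cells, and melanocyte markers 2 and 1 of 5 in both. Endothelial markers had 1 and 1 of 8 in SKP-derived and 2 and 0 of 8 in nerve Schwann cells, and smooth muscle markers 1 and 2 of 7 and 1 and 1 of 7 in the same order. Skeletal muscle markers had 1 and 0 of 7 and 2 and 0 of 7 in that order, and adipocyte markers 0 and 0 of 6 in both. The part of these other cell types in the results below was not tested, and in bulk RNA fewer cells of a type and less RNA per cell cannot be told apart.

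The first question was whether positional regulators differed between SKP-derived Schwann cells and SKPs. Fell and rose mean lower and higher than in the SKP arrays, which come from samples deposited earlier. Of the 65 genes, 14 (21.5%) fell and 8 (12.3%) rose in SKP-derived Schwann cells relative to SKPs. Over all 14506 genes 17.7% were lower and 17.8% higher by the same rule, so these shares were near the background. The median difference of the 65 genes was -0.02 as deposited and -0.07 after cyclic loess, against -0.01 and 0.02 over all genes. Differences as deposited ran between -2.23 and 1.94. The genes that fell were Meis1, Hoxa5, Tbx18, Irx1, Hoxc9, Irx2, Hoxa7, Irx3, Msx2, Irx5, Pbx2, Hoxa4, Tbx22 and Dlx3, and those that rose were Tbx2, Pbx3, Pbx4, Lhx4, Tbx19, Hoxb7, Meis3 and Dlx5.

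The same question for nerve Schwann cells, which were not made from SKPs, gave 9 lower genes (13.8%) and 7 higher genes (10.8%), where 14.8% of all genes were lower and 22.3% higher. Both Schwann cell groups were compared with the same 3 SKP arrays, so genes that recur in both comparisons are not independent evidence. Lower in both were 8 genes, Hoxa5, Hoxa7, Irx1, Irx2, Irx3, Irx5, Meis1 and Msx2. Higher in both were 6, Lhx4, Meis3, Pbx3, Pbx4, Tbx19 and Tbx2. These are 12.3% and 9.23% of the 65 genes, where 12.7% of all genes were lower in both and 14.4% higher in both. In SKP-derived Schwann cells alone 8 further genes were called, and in nerve Schwann cells alone Lhx3 was higher and Tbx15 lower. None was called in opposite directions, and 41 were called in neither. Without scaling, the median of all genes was 0.46 higher in nerve Schwann cells than in SKPs, and 0.01 after cyclic loess, so the loess difference is given beside the deposited one. Single scalings gave other counts for nerve Schwann cells: 33 higher as deposited and 16 after median centring, against 49.7% and 34.7% of all genes, and 18 lower after loess and 19 after quantile scaling, against 23.6% and 22.9%.

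**Figure D1:**
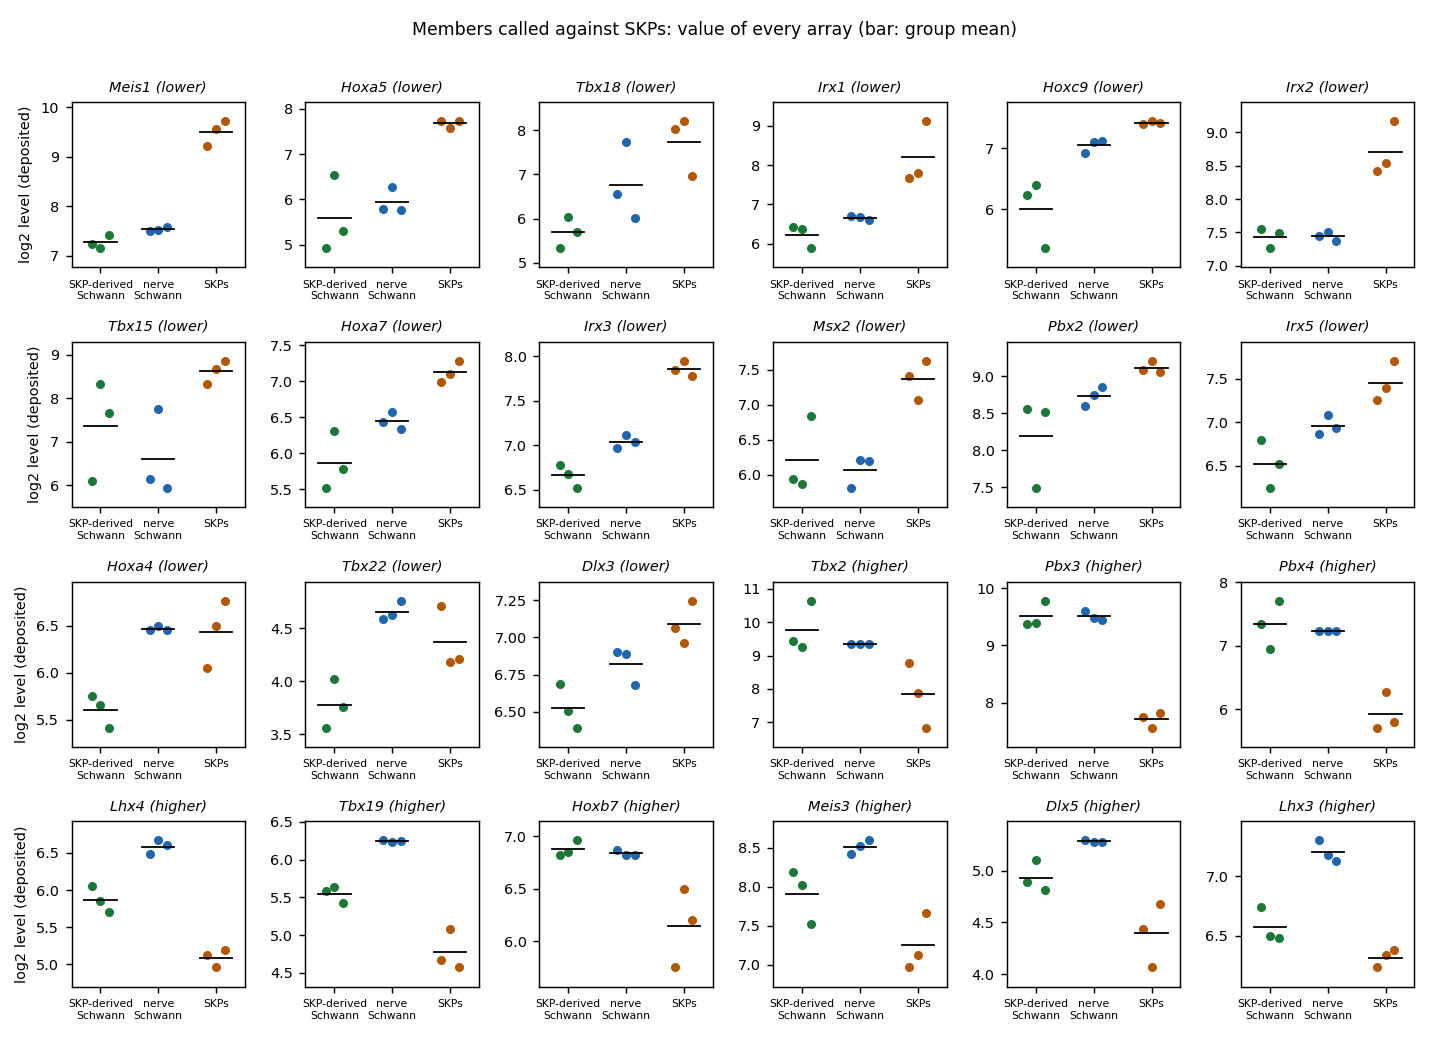
Deposited log2 level (vertical axes) of the 24 genes called against SKPs in at least 1 Schwann cell group, with a point per array for SKP-derived Schwann cells, nerve Schwann cells and SKPs and a bar at each group mean. Each panel title says whether the gene was lower or higher than in SKPs; Meis1 sits between 7.15 and 7.58 in the 6 Schwann cell arrays and at 9.22 or above in the 3 SKP arrays.

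Partners of Hox proteins differed between Schwann cells and SKPs in both directions. Meis1, a cofactor that stabilises Hox and Pbx on DNA, read 7.23, 7.15 and 7.42 in SKP-derived Schwann cells, 7.51, 7.52 and 7.58 in nerve Schwann cells, and 9.22, 9.56 and 9.72 in SKPs. The SKP arrays lay above all 6 Schwann cell arrays. Meis1 fell by 2.23 in SKP-derived Schwann cells (limma adjusted p = 9.23e-06, SE 0.15), or -2.04 after cyclic loess (95% CI -2.35 to -1.72). In nerve Schwann cells its difference from SKPs was -1.97 (limma adjusted p = 1.65e-05) and -2.08 after loess. Its 9 left-out-array fits gave -2.37 to -2.12 in the SKP-derived comparison. Meis2, of the same family, was called in neither comparison.

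Meis3, another Meis family member, read 8.19, 8.03 and 7.53 in SKP-derived Schwann cells, 8.43, 8.52 and 8.59 in nerve Schwann cells, and 6.97, 7.13 and 7.66 in SKPs. The nerve arrays lay above the SKP arrays, while array 3 of the SKP-derived group lay below array 3 of the SKPs. Relative to SKPs, Meis3 was 1.26 higher in nerve Schwann cells (limma adjusted p = 0.00089, 1.14 after loess). In SKP-derived Schwann cells it was 0.66 higher (limma adjusted p = 0.0361, 0.86 after loess). That call was kept in only 2 of the 9 fits that each leave out 1 array, those without SKP-derived array 3 or SKP array 3, and its difference ran between 0.52 and 0.87.

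Pbx3, a homeodomain partner of Hox proteins, read 9.38, 9.40 and 9.79 in SKP-derived Schwann cells, 9.61, 9.48 and 9.44 in nerve Schwann cells, and 7.75, 7.56 and 7.81 in SKPs. No Schwann cell array overlapped an SKP array. Its difference from SKPs was 1.82 in SKP-derived Schwann cells (limma adjusted p = 2.37e-05, SE 0.15) and 1.80 in nerve Schwann cells (limma adjusted p = 2.21e-05), or 1.92 and 1.64 after loess. Pbx4 read 7.34, 6.96 and 7.71 in SKP-derived Schwann cells, 7.23, 7.24 and 7.23 in nerve Schwann cells, and 5.71, 6.27 and 5.80 in SKPs. Again the groups did not overlap, and the difference from SKPs was 1.41 in SKP-derived (limma adjusted p = 0.00066, 1.48 after loess) and 1.31 in nerve Schwann cells (limma adjusted p = 0.000612, 0.92 after loess).

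Pbx2 went the other way. It read 8.56, 7.49 and 8.52 in SKP-derived Schwann cells, 8.60, 8.75 and 8.86 in nerve Schwann cells, and 9.09, 9.21 and 9.05 in SKPs. Array 2 of the SKP-derived group stood about 1 log2 unit below the other arrays of its group. Pbx2 fell by 0.93 in SKP-derived Schwann cells (limma adjusted p = 0.0174), but without SKP-derived array 2 the difference was -0.58, and the call was lost without SKP array 2 (limma adjusted p = 0.0525). For nerve Schwann cells the difference of -0.38 missed the threshold (limma adjusted p = 0.218). The Pbx family thus had 2 of 3 genes higher and 1 lower in SKP-derived Schwann cells.

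Of the 22 measured Hox genes of 39, 1 was higher and 4 lower in SKP-derived Schwann cells than in SKPs. In nerve Schwann cells 0 were higher and 2 lower than in SKPs. Over all genes 17.8% were higher and 17.7% lower in SKP-derived Schwann cells, and 22.3% higher and 14.8% lower in nerve Schwann cells. Hoxa5, which in the mouse patterns the cervical and upper thoracic level and the lung, read 4.93, 6.53 and 5.31 in SKP-derived Schwann cells, 5.79, 6.27 and 5.78 in nerve Schwann cells, and 7.73, 7.59 and 7.73 in SKPs. The SKP arrays were the highest, and array 2 was the highest of each Schwann cell group. Hoxa5 fell by 2.09 in SKP-derived Schwann cells (limma adjusted p = 0.00125, SE 0.35), and without SKP-derived array 2 the difference was -2.56. In nerve Schwann cells its difference from SKPs was -1.74 (limma adjusted p = 0.00201), or -2.26 after loess (95% CI -3.05 to -1.48).

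Hoxa7, a trunk-level gene of the same cluster, read 5.52, 6.31 and 5.78 in SKP-derived Schwann cells, 6.44, 6.58 and 6.34 in nerve Schwann cells, and 7.0, 7.10 and 7.29 in SKPs. No Schwann cell array reached an SKP array. Hoxa7 fell by 1.26 in SKP-derived Schwann cells (limma adjusted p = 0.00089, SE 0.20, -1.25 after loess). In nerve Schwann cells its difference from SKPs was -0.68 (limma adjusted p = 0.0137, -1.18 after loess). Hoxa4, of the same cluster, read 5.75, 5.66 and 5.41 in SKP-derived Schwann cells, 6.46, 6.50 and 6.46 in nerve Schwann cells, and 6.05, 6.49 and 6.77 in SKPs. The SKP-derived arrays were the lowest, and the nerve arrays lay within the SKP range. Hoxa4 fell by 0.83 in SKP-derived Schwann cells (limma adjusted p = 0.00613), a call kept in 6 of the 9 left-out-array fits. It was lost without SKP-derived array 3, SKP array 2 or SKP array 3, with differences of -1.03 to -0.66 over the 9 fits.

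Hoxc9, a thoracic-level gene, read 6.23, 6.41 and 5.37 in SKP-derived Schwann cells, 6.92, 7.11 and 7.13 in nerve Schwann cells, and 7.41, 7.45 and 7.41 in SKPs. The 3 groups did not overlap as deposited. Hoxc9 fell by 1.42 in SKP-derived Schwann cells (limma adjusted p = 0.00129, SE 0.24, -1.35 after loess). In nerve Schwann cells its difference from SKPs was -0.37 as deposited (limma adjusted p = 0.196) and -0.76 after loess (limma adjusted p = 0.0259), so it was not called. Hoxb7 was the 1 Hox gene that rose. It read 6.82, 6.85 and 6.96 in SKP-derived Schwann cells, 6.87, 6.82 and 6.82 in nerve Schwann cells, and 5.75, 6.49 and 6.20 in SKPs. Its difference from SKPs was 0.73 in SKP-derived Schwann cells (limma adjusted p = 0.00997), and in nerve Schwann cells 0.69 as deposited but 0.23 after loess (limma adjusted p = 0.323).

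Hox genes are numbered 1 to 13 by position, and of the 5 measured genes numbered 1 to 3 none was called against SKPs in either comparison. Of the 9 numbered 4 to 8, 3 were lower and 1 higher in SKP-derived Schwann cells, and 2 were lower in nerve Schwann cells. Of the 8 numbered 9 to 13, 1 was lower in SKP-derived and 0 in nerve Schwann cells. Each range holds few genes, and the shares over all genes were 17.7% lower and 17.8% higher in SKP-derived, and 14.8% lower and 22.3% higher in nerve Schwann cells. The median loess difference from SKPs in SKP-derived Schwann cells was -0.13 for numbers 1 to 3, -0.64 for 4 to 8 and -0.25 for 9 to 13. Differences between these ranges were not tested. In the Hoxa cluster on chromosome 4 the 3 lower genes are Hoxa4, Hoxa5 and Hoxa7, with Hoxa6 between them not analysed here, while Hoxa2 and Hoxa11 were not called. In the Hoxb cluster on chromosome 10, Hoxb7 was higher and its neighbour Hoxb8 had a loess difference of -0.64 in SKP-derived Schwann cells, not called under all 4 scalings. None of the 6 measured Hoxd genes on chromosome 3 was called, and of the 4 Hoxc genes on chromosome 7 only Hoxc9 was.

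**Figure D2:**
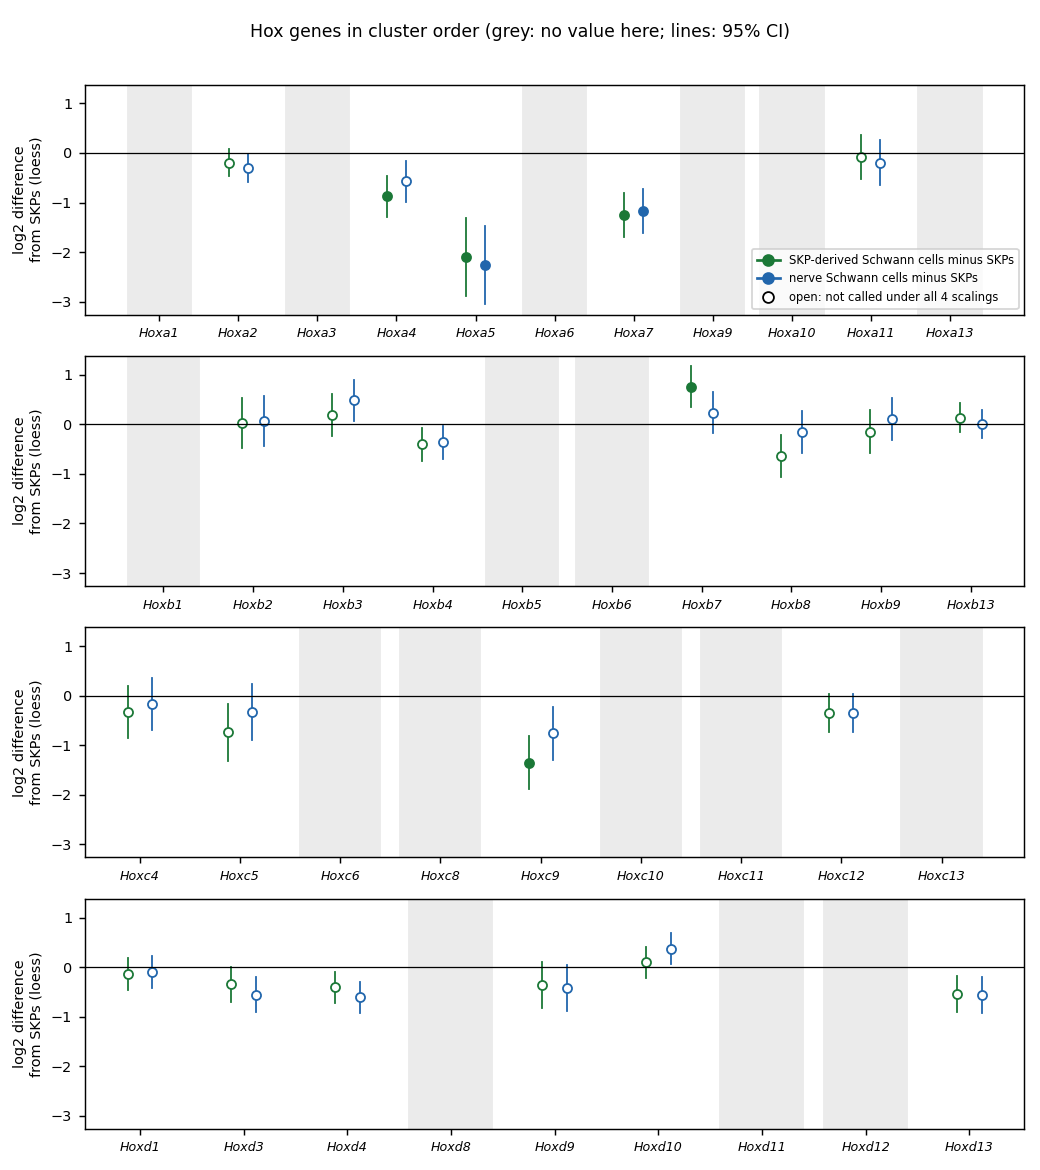
Log2 difference from SKPs after cyclic loess (vertical axes) for the Hox genes of the 4 clusters in their order along the chromosome (horizontal axes), for SKP-derived and nerve Schwann cells, with 95% confidence intervals. Filled points were called under all 4 scalings, open points were not, and grey bands mark genes not analysed here; Hoxa5 has the lowest point in both groups, at -2.09 and -2.26.

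Of the 6 measured Iroquois genes, Irx1, Irx2, Irx3 and Irx5 were lower in both Schwann cell groups than in SKPs. Irx4 and Irx6 were not called, and Irx6 had loess differences of 0.11 in SKP-derived and -0.24 in nerve Schwann cells. In the rat these genes form a pair of clusters, Irx4, Irx2 and Irx1 on chromosome 1 and Irx6, Irx5 and Irx3 on chromosome 19, so each cluster held 2 called genes. Irx1 read 6.43, 6.37 and 5.89 in SKP-derived Schwann cells, 6.70, 6.68 and 6.59 in nerve Schwann cells, and 7.68, 7.79 and 9.13 in SKPs. SKP array 3 was far above the other SKP arrays, but all 3 lay above the Schwann cell arrays. Relative to SKPs, Irx1 was 1.97 lower in SKP-derived Schwann cells (limma adjusted p = 0.00149, SE 0.34) and 1.54 lower in nerve Schwann cells (limma adjusted p = 0.00324). Without SKP array 3 the differences were -1.51 and -1.08.

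Irx2 read 7.55, 7.27 and 7.49 in SKP-derived Schwann cells, 7.44, 7.51 and 7.37 in nerve Schwann cells, and 8.42, 8.54 and 9.17 in SKPs. The difference from SKPs was -1.27 in both (limma adjusted p = 0.000791 in SKP-derived and 0.00049 in nerve Schwann cells). Irx3 read 6.78, 6.68 and 6.52 in SKP-derived Schwann cells, 6.96, 7.11 and 7.03 in nerve Schwann cells, and 7.84, 7.95 and 7.78 in SKPs. For both genes the SKP arrays lay apart from all Schwann cell arrays. Irx3 was the tightest of the 4, at -1.20 (limma adjusted p = 9.02e-05, SE 0.13) in SKP-derived and -0.82 (limma adjusted p = 0.000455, -1.09 after loess) in nerve Schwann cells.

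Irx5 read 6.80, 6.25 and 6.52 in SKP-derived Schwann cells, 6.87, 7.08 and 6.93 in nerve Schwann cells, and 7.26, 7.39 and 7.70 in SKPs. It fell by 0.93 in SKP-derived Schwann cells (limma adjusted p = 0.00254). In nerve Schwann cells it was 0.49 lower than in SKPs (limma adjusted p = 0.0338, -0.82 after loess), a call kept in 4 of the 9 left-out-array fits. That call was lost without any 1 of the 3 nerve arrays, SKP array 2 or SKP array 3, with differences of -0.59 to -0.36 over the 9 fits. Irx4 was lower in SKP-derived Schwann cells after loess (-0.67, limma adjusted p = 0.00939) and as deposited but not after median centring (limma adjusted p = 0.0959).

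T-box genes went both ways. Tbx2, a transcriptional repressor of the T-box family, read 9.42, 9.26 and 10.65 in SKP-derived Schwann cells, 9.35, 9.35 and 9.35 in nerve Schwann cells, and 8.79, 7.87 and 6.84 in SKPs. The Schwann cell arrays lay above the SKP arrays, which spread over about 2 log2 units, while the nerve arrays had an SD of 0.0006 and included repeated values. Tbx2 was 1.94 higher in SKP-derived Schwann cells (limma adjusted p = 0.00956, SE 0.48, 95% CI 0.98 to 3.09 after loess) and 1.52 higher in nerve Schwann cells (limma adjusted p = 0.0188). Without SKP array 3 these were 1.45 (limma adjusted p = 0.0197) and 1.02 (limma adjusted p = 0.0512). Under all 4 scalings the nerve call was kept in 4 of 9 left-out-array fits, being lost without any 1 of the nerve arrays, SKP array 2 or SKP array 3. Tbx19, which in the pituitary drives the corticotroph programme, was 0.77 higher in SKP-derived (limma adjusted p = 0.00328) and 1.47 higher in nerve Schwann cells (limma adjusted p = 6.57e-05), or 0.70 and 0.74 after loess. It read 5.58, 5.63 and 5.43 in SKP-derived Schwann cells, 6.25, 6.24 and 6.25 in nerve Schwann cells, and 4.67, 5.09 and 4.57 in SKPs, with no overlap. All 9 Tbx19 values lay below the median gene of their array (6.92 to 7.35).

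Tbx15, which in the mouse sets the boundary between dorsal and ventral skin, varied most within both Schwann cell groups. It read 6.09, 8.34 and 7.66 in SKP-derived Schwann cells, 6.13, 7.75 and 5.94 in nerve Schwann cells, and 8.34, 8.67 and 8.86 in SKPs. The nerve arrays lay below the SKP arrays, whereas SKP-derived array 2 was as high as SKP array 1. Its SD was 1.16 in SKP-derived Schwann cells, 0.99 in nerve Schwann cells and 0.27 in SKPs. Tbx15 fell by 2.02 in nerve Schwann cells (limma adjusted p = 0.0137, -2.20 after loess), and the call was lost without nerve array 1 (-1.78, limma adjusted p = 0.0517) or nerve array 3 (-1.69, limma adjusted p = 0.0523). In SKP-derived Schwann cells the difference of -1.26 missed the threshold (limma adjusted p = 0.117, 95% CI after loess -2.46 to 0.29). Without SKP-derived array 2 it was -1.75 (limma adjusted p = 0.0468).

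Tbx18, which marks mesenchyme of somites and hair follicles in the mouse, read 5.34, 6.05 and 5.69 in SKP-derived Schwann cells, 6.55, 7.73 and 6.0 in nerve Schwann cells, and 8.02, 8.21 and 6.95 in SKPs. SKP-derived arrays lay below SKP arrays, and nerve array 2 lay within the SKP range. Tbx18 fell by 2.04 in SKP-derived Schwann cells (limma adjusted p = 0.00582, SE 0.45). Its nerve Schwann cell difference of -0.97 missed the threshold as deposited (limma adjusted p = 0.0859) and was -1.39 after loess (limma adjusted p = 0.0317). In Hoxa5, Hoxa7, Tbx15 and Tbx18 array 2 was the highest of both Schwann cell groups, as deposited and after loess. It was also the highest in the mean of the dermal mesenchyme markers, and the part of those cells was not tested. Hoxb8 had this order only as deposited, with nerve arrays at 6.07, 6.08 and 6.07, and array 3 was its highest after loess. Most of the 65 genes did not have this order, and its share over all genes was not counted. With both Schwann cell arrays 2 left out, Hoxa5 and Tbx18 were still called lower in SKP-derived Schwann cells, Tbx15 was called lower in both comparisons, and Meis1 was still called lower in both. In that fit 15 of the 22 SKP-derived calls were kept and those of Msx2, Dlx3, Dlx5, Hoxa4, Meis3, Pbx2 and Tbx22 were lost, as was that of Tbx2 in nerve Schwann cells. The Msx2 difference in SKP-derived Schwann cells was then -0.98 as deposited, and this call had been kept in all 9 fits that leave out 1 array. Tbx22, a palate factor, was 0.59 lower in SKP-derived Schwann cells (limma adjusted p = 0.0264). Its call was kept in 1 of 9 left-out-array fits, that without SKP-derived array 2, with differences of -0.71 to -0.42.

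**Figure D3:**
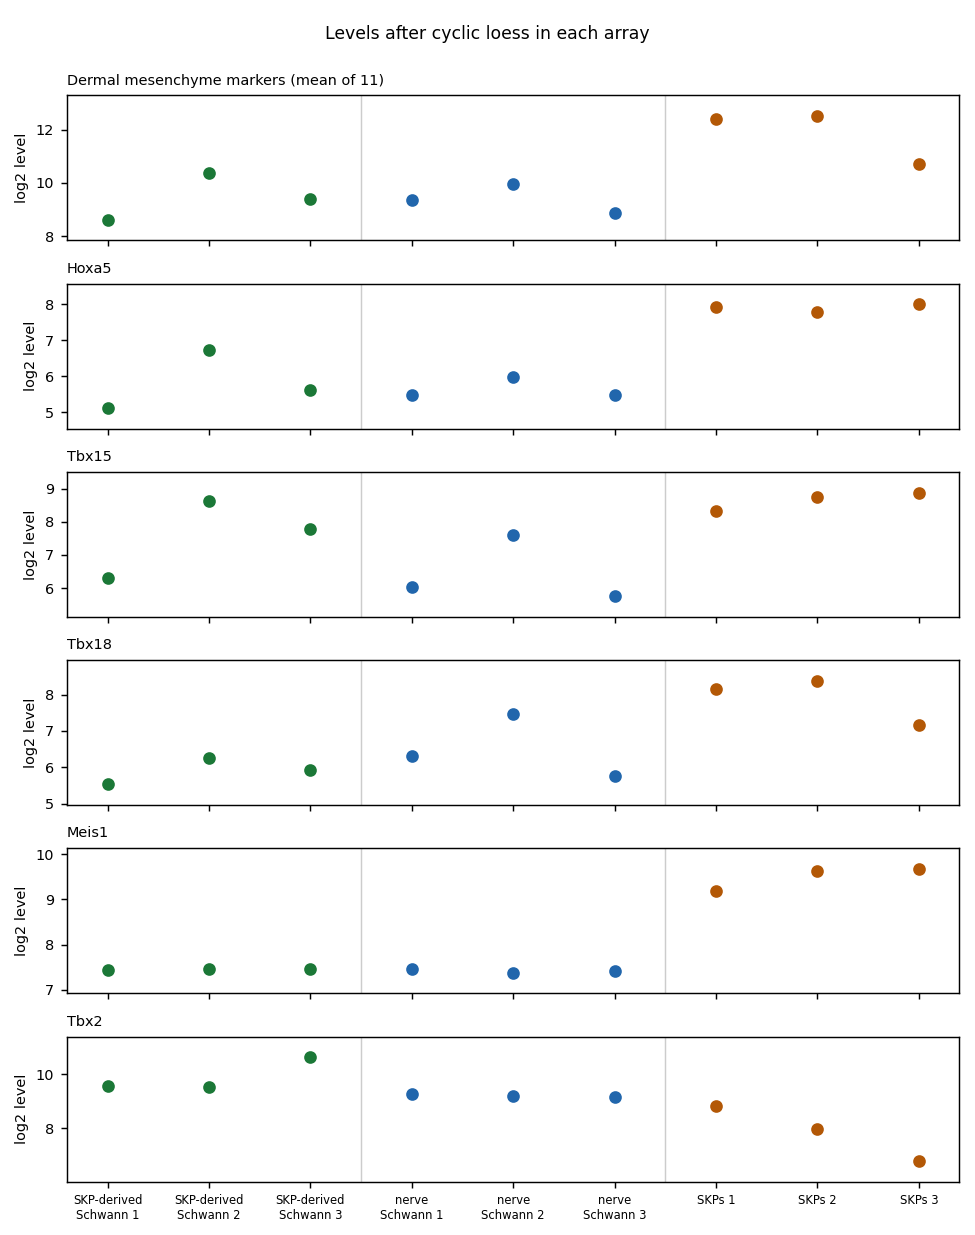
Log2 level after cyclic loess (vertical axes) in each of the 9 arrays, for the mean of 11 dermal mesenchyme markers and for Hoxa5, Tbx15, Tbx18, Meis1 and Tbx2, with SKP-derived Schwann cells at the left, nerve Schwann cells in the middle and SKPs at the right. The marker mean, Hoxa5, Tbx15 and Tbx18 are highest in array 2 of both Schwann cell groups, whereas Meis1 is nearly level across the Schwann cell arrays.

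Among the remaining families, Msx2, a target of bone morphogenetic protein signalling in skull and skin, read 5.94, 5.86 and 6.84 in SKP-derived Schwann cells, 5.81, 6.20 and 6.20 in nerve Schwann cells, and 7.42, 7.07 and 7.63 in SKPs. All Schwann cell arrays were below the SKP arrays. Relative to SKPs, Msx2 was 1.16 lower in SKP-derived (limma adjusted p = 0.00702) and 1.30 lower in nerve Schwann cells (limma adjusted p = 0.00222). Lhx4, a LIM homeodomain factor of pituitary and motor neurons, read 6.05, 5.85 and 5.70 in SKP-derived Schwann cells, 6.49, 6.67 and 6.60 in nerve Schwann cells, and 5.12, 4.96 and 5.19 in SKPs. Every Schwann cell array was above the SKP arrays, on average by 0.78 in SKP-derived (limma adjusted p = 0.00174) and 1.50 in nerve Schwann cells (limma adjusted p = 3.7e-05, 0.82 after loess). Lhx3, which acts with Lhx4 in those tissues, was 0.89 higher in nerve Schwann cells (limma adjusted p = 0.00034), and without nerve array 1 the deposited difference was 0.84 but the call did not hold under all 4 scalings.

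Dlx3 and Dlx5, homeodomain factors of skin, face and bone, were called in SKP-derived Schwann cells in opposite directions. Dlx3 fell by 0.57 (limma adjusted p = 0.0101) and Dlx5 was 0.54 higher (limma adjusted p = 0.0284). Dlx3 kept its call in 2 of the 9 left-out-array fits, those without SKP-derived array 1 or SKP array 1, with differences of -0.64 to -0.49. Dlx5 kept it in 1, without SKP array 3, with differences of 0.37 to 0.68. Of the 22 calls in SKP-derived Schwann cells 16 were kept in all 9 such fits, and 6 were lost in at least 1. Without the 3 nerve arrays, whose spread is narrow, 6 genes were higher and 10 lower, the same genes less Dlx3, Dlx5, Hoxa4, Meis3, Pbx2 and Tbx22. Of the 16 calls in nerve Schwann cells 12 were kept in all 9 fits. None of Six3, Six4 and Six6, nor of the 2 measured Pitx genes, was called in any comparison.

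**Figure D4:**
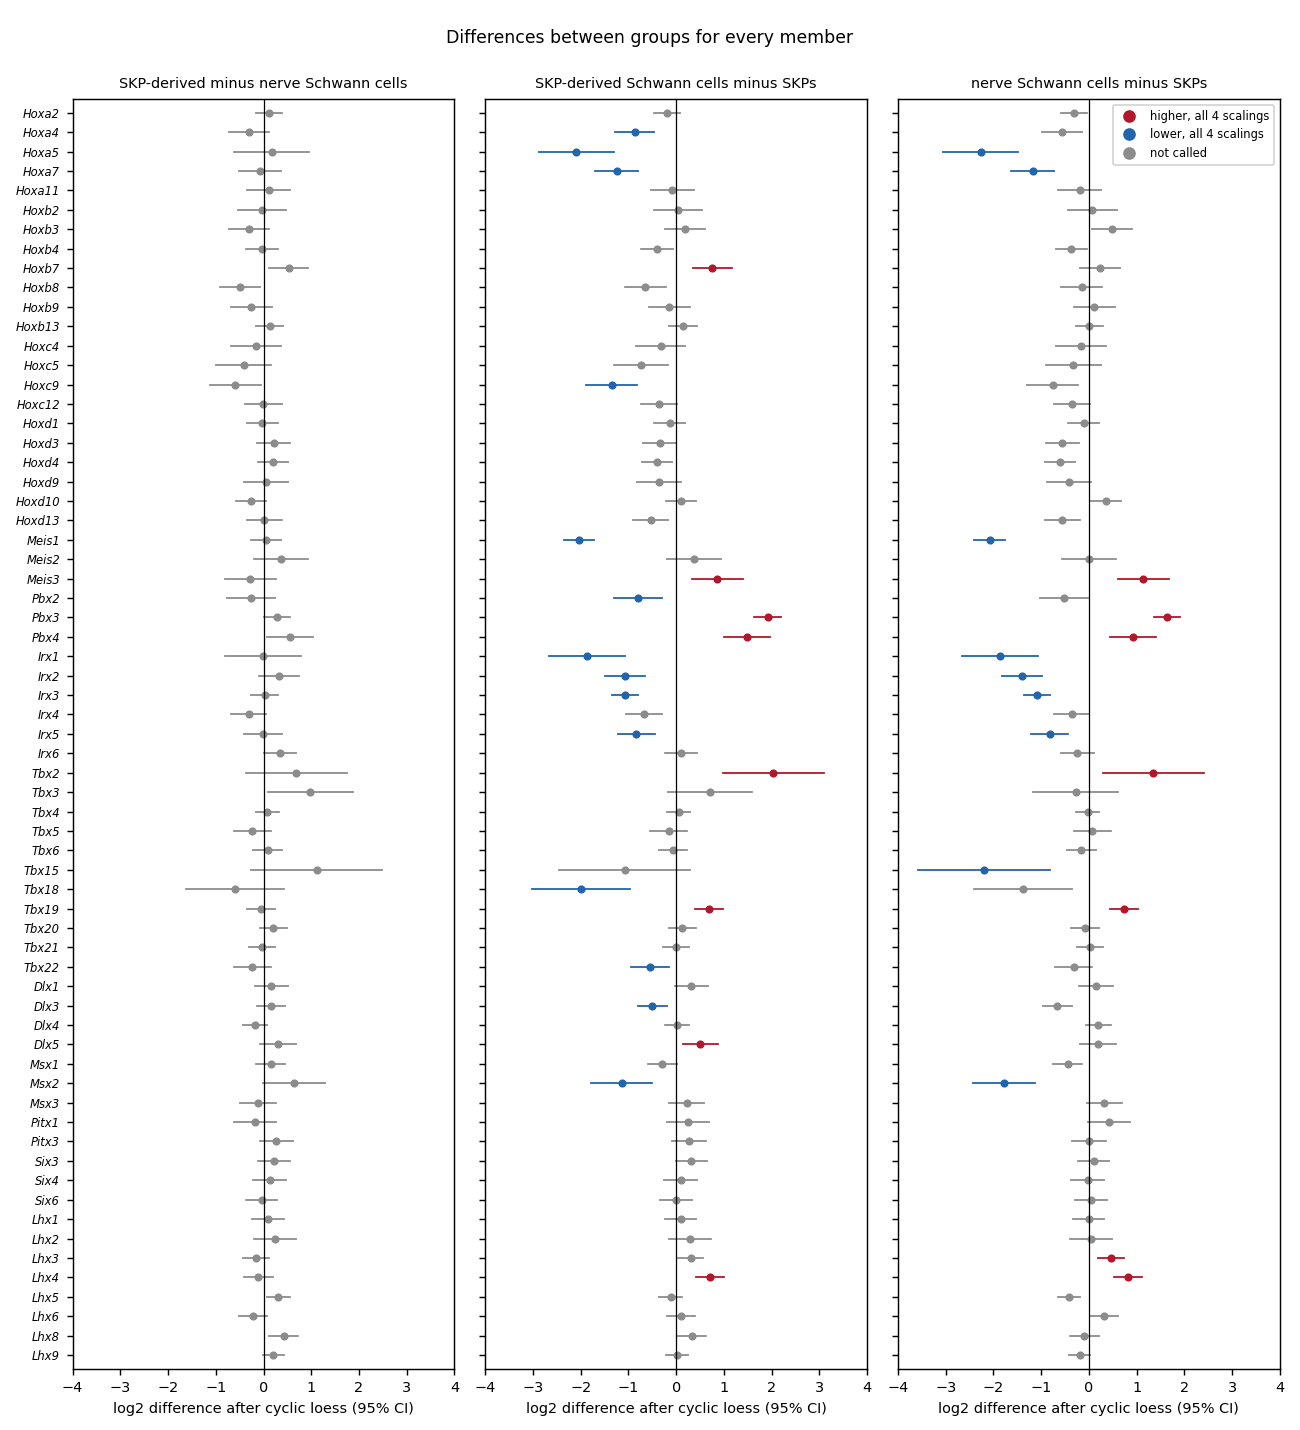
Log2 difference after cyclic loess (horizontal axes, with 95% confidence intervals) of each of the 65 genes (rows, ordered by family) in 3 comparisons: SKP-derived minus nerve Schwann cells, SKP-derived Schwann cells minus SKPs, and nerve Schwann cells minus SKPs. Red points were called higher, blue points lower and grey points were not called under all 4 scalings; the left panel holds no called gene.

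SKP-derived and nerve Schwann cells were then compared directly, which asks whether cells from trunk skin and from a limb nerve keep different positional expression in the same medium. By limma under all 4 scalings 0 of the 65 genes were higher and 0 lower, where 0.483% of all genes were higher and 0.407% lower. At those shares few calls among 65 genes would be made in any case. As deposited alone 34 genes were lower and 0 higher, against 42.3% of all genes lower and 1.33% higher. Median centring alone called Hoxb8 lower and 0 higher, against 2.07% and 1.6% of all genes. At an unadjusted p under 0.05, 43 of the 65 passed as deposited, 12 after median centring, 9 after cyclic loess and 9 after quantile scaling, against 53.5%, 25.3%, 20.1% and 20.9% of all genes. The smallest adjusted p after loess was 0.133. The median loess difference of the 65 genes was 0.05 against -0.01 over all genes, with single differences between -0.60 and 1.11. The confidence intervals had a median half-width of 0.37, and the number of arrays limits what could be called.

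The intervals differ widely between genes. Meis1 had a loess difference of 0.05 between SKP-derived and nerve Schwann cells (95% CI -0.27 to 0.36). For Hoxa7 it was -0.07 (95% CI -0.52 to 0.37), although as deposited it was -0.58 (limma adjusted p = 0.0401). For Hoxa5 it was 0.17 (95% CI -0.62 to 0.96), against -0.35 as deposited, so its sign turned with the scaling. Without SKP-derived array 2 its deposited difference was -0.82 (limma adjusted p = 0.0132). Irx1, Irx3 and Irx5 had loess differences of -0.01, 0.02 and -0.01. For Meis1 and Hoxa7 the loess intervals leave out differences of the size seen after loess against SKPs. As deposited, the Hoxa7 interval of -1.03 to -0.13 holds the -0.68 seen in nerve Schwann cells against SKPs.

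Other genes left more room. Tbx15 was the 1 gene with more than a 2-fold difference after loess, at 1.11 (95% CI -0.26 to 2.49, limma adjusted p = 0.342), where 2.82% of all genes passed that size. As deposited its difference was 0.76, without SKP-derived array 2 it was 0.27, and with array weights it was -0.43. Tbx3 had the next largest loess difference, at 0.98 (95% CI 0.10 to 1.87, limma adjusted p = 0.208), and 0.67 as deposited (limma adjusted p = 0.168). Hoxc9 had a loess difference of -0.60 (95% CI -1.13 to -0.06, limma adjusted p = 0.207) and Hoxb7 one of 0.53 (95% CI 0.11 to 0.94, limma adjusted p = 0.165). Hoxb8 read 4.74, 5.11 and 4.94 in SKP-derived Schwann cells, 6.07, 6.08 and 6.07 in nerve Schwann cells, and 5.87, 5.55 and 5.08 in SKPs. Its difference between the Schwann cell groups was -1.14 as deposited (limma adjusted p = 0.00338) and -0.49 after loess (limma adjusted p = 0.198). The median of all genes was -0.45 as deposited and -0.01 after loess. The genes called against SKPs in SKP-derived Schwann cells alone, Hoxc9 and Tbx18 among them, were thus not shown to differ between the Schwann cell groups.

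**Figure D5:**
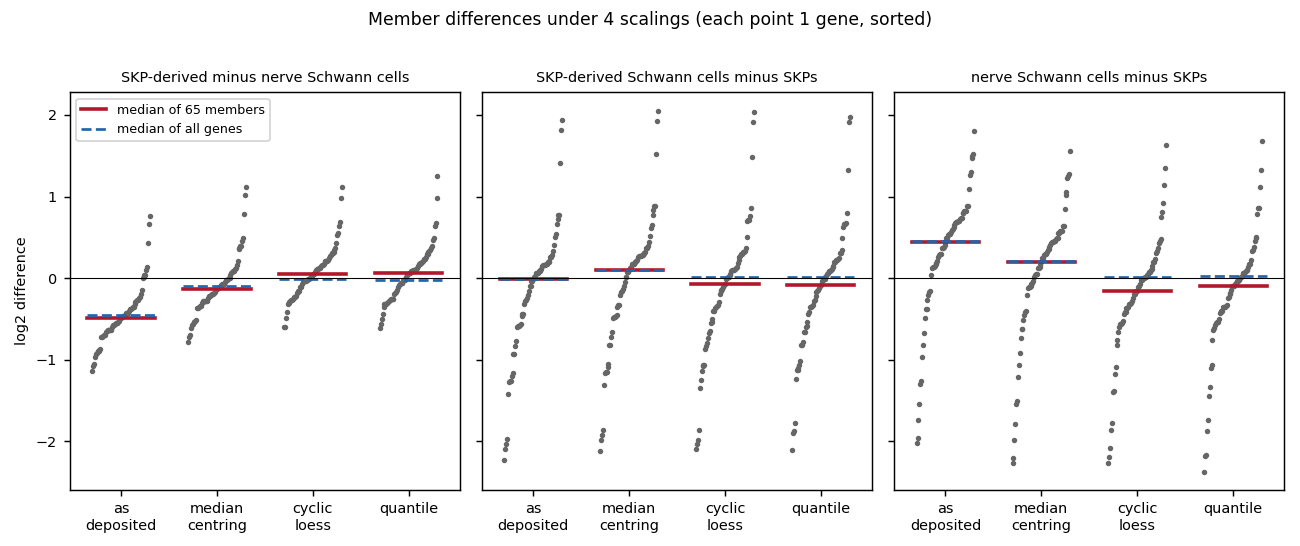
Log2 differences (vertical axes) of the 65 genes in the 3 comparisons under 4 scalings, with a point per gene in sorted order, a solid line at their median and a dashed line at the median of all genes. Between SKP-derived and nerve Schwann cells the median of the 65 genes is -0.49 as deposited and 0.05 after cyclic loess, close to that of all genes in both cases.

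Genes that act with or upstream of the positional regulators were read from 4 lists. Their counts stand beside 17.8% of all genes higher and 17.7% lower in SKP-derived Schwann cells, and 22.3% higher and 14.8% lower in nerve Schwann cells. Of 11 partners of these homeodomain proteins, 6 were measured, of which 1 was higher and 3 lower in SKP-derived Schwann cells, while nerve Schwann cells had 1 higher and 4 lower, relative to SKPs. Without nerve array 1 that last count was 2. Eya2, a transcriptional coactivator, read 5.97, 6.41 and 6.05 in SKP-derived Schwann cells, 6.17, 6.28 and 6.26 in nerve Schwann cells, and 8.22, 8.11 and 8.14 in SKPs, without overlap between Schwann cells and SKPs. Its difference was -2.02 in SKP-derived (limma adjusted p = 9.7e-06) and -1.92 in nerve Schwann cells (limma adjusted p = 1.24e-05). Tgif1 and Tgif2, related homeodomain repressors whose motif was searched above, moved apart. The Tgif1 difference was -1.48 in SKP-derived and -0.86 in nerve Schwann cells (limma adjusted p = 0.00173 and 0.0164), and without nerve array 1 the second was -0.54 and not called, while Tgif2 was 2.13 and 2.60 higher (limma adjusted p = 9.12e-06 and 3.86e-06). The median loess difference of this list was -0.64 in SKP-derived and -0.93 in nerve Schwann cells.

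Of 30 Polycomb and trithorax regulators, which keep Hox clusters silent or active, 23 were measured. In SKP-derived Schwann cells 9 were higher and 4 lower, and nerve Schwann cells had 13 higher and 1 lower, relative to SKPs. The shares over all genes were 17.8% higher and 17.7% lower in SKP-derived, and 22.3% higher and 14.8% lower in nerve Schwann cells. That 1 became 2 without SKP-derived array 2 or SKP array 1. Ezh2, a methyltransferase of Polycomb repressive complexes, was 1.55 higher in SKP-derived Schwann cells (limma adjusted p = 0.000324) and was also called higher in nerve Schwann cells. Kdm6b, a demethylase that removes the same mark, was 1.85 higher in SKP-derived (limma adjusted p = 0.00176) and 2.43 higher in nerve Schwann cells (limma adjusted p = 0.000246). Pcgf1, a Polycomb subunit, was 1.37 and 1.45 higher in the same order (limma adjusted p = 0.000193 and 9.93e-05). Dot1l, a histone methyltransferase, was 1.73 higher in nerve Schwann cells (limma adjusted p = 0.000109) and was also called higher in SKP-derived Schwann cells. Ezh1, a relative of Ezh2, was called lower in SKP-derived Schwann cells, with a mean of 8.58 against 9.52 in SKPs. In nerve Schwann cells Ezh1 was not called. The calls of this list thus included both writers and erasers of the mark. Its median loess difference from SKPs was 0.42 in SKP-derived and 0.56 in nerve Schwann cells.

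Retinoic acid induces Hox genes in the embryo, and 19 of 22 genes of that pathway and related axial signals were measured. In SKP-derived Schwann cells 3 were higher (Rara, Gdf11 and Rxrg) and 4 lower, and nerve Schwann cells had 5 higher and 4 lower. The higher genes were 1 without SKP-derived array 1, SKP array 1 or SKP array 3 in the first case. In the second they were 2 or 3 without SKP-derived array 1 or 3, any 1 nerve array, or SKP array 1 or 2. Cyp26b1, which degrades retinoic acid, read 5.45, 5.43 and 5.27 in SKP-derived Schwann cells, 5.91, 6.22 and 6.19 in nerve Schwann cells, and 10.78, 10.54 and 7.62 in SKPs. SKP array 3, lowest in dermal markers, was also the lowest SKP array here. Its difference was -4.26 in SKP-derived (limma adjusted p = 0.000909, SE 0.68) and -3.54 in nerve Schwann cells (limma adjusted p = 0.00148). Crabp2, a retinoic acid carrier, fell by 2.52 in SKP-derived Schwann cells (limma adjusted p = 0.0111), a call kept in 5 of the 9 left-out-array fits and lost without SKP-derived array 1 or 3 or SKP array 1 or 2, with differences of -3.30 to -2.02. In nerve Schwann cells Crabp2 was also called lower, with a mean of 7.56 against 10.05 in SKPs. Its relative Crabp1 fell by 4.04 in nerve Schwann cells (limma adjusted p = 0.00392). Crabp1 was not called in SKP-derived Schwann cells, with a mean of 9.84 there and 12.45 in SKPs. Rxrg, a nuclear receptor, was 3.68 higher in SKP-derived (limma adjusted p = 1.39e-05) and 4.48 higher in nerve Schwann cells (limma adjusted p = 5.27e-06). The median loess difference of the list was -0.18 and 0.05 in the same order.

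Patterning factors of limb, body wall and dermis outside the 65 genes were lower or not called in SKP-derived Schwann cells. Of 26 measured of 38, 0 were higher and 10 lower there, and nerve Schwann cells had 2 higher and 8 lower, relative to SKPs. The 2 higher genes, Evx1 and Meox2, were reduced to 1 call without SKP-derived array 3, nerve array 1 or SKP array 2 and to 0 without nerve array 2, and 1 gene was called higher in SKP-derived Schwann cells without SKP-derived array 2. Prrx1, a homeodomain factor of limb and body wall mesenchyme, read 6.78, 10.62 and 7.91 in SKP-derived Schwann cells, 8.48, 9.86 and 7.41 in nerve Schwann cells, and 12.55, 12.56 and 11.57 in SKPs. Array 2 was the highest of both Schwann cell groups, as for Tbx15. Its difference was -3.79 in SKP-derived (limma adjusted p = 0.00847) and -3.64 in nerve Schwann cells (limma adjusted p = 0.0061). Shox2, a limb factor, had differences of -3.75 and -3.26 in the same order (limma adjusted p = 5.61e-06 and 9.85e-06), and Zic1, a factor of dorsal neural tube and somites, of -2.94 and -3.47 (limma adjusted p = 0.000342 and 9.88e-05). The median loess difference was -0.23 and -0.20, so the lower levels were those of a part of the list. By limma under all 4 scalings, none of the 4 lists held a gene called between the Schwann cell groups, with median loess differences of 0.05, -0.08, -0.16 and -0.01 in the order given.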

How the data were processed

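Gene expression was measured in 9 rat cell cultures, 3 per group, on 1-colour arrays. The values are the log2 levels deposited by the authors for 29214 features, for which the submitters' processing notes name RMA and Affymetrix's Expression Console. RMA corrects background, normalises arrays and summarises probes. Versions, build and whether all arrays were normalised together: not given in the sources used here. Platform annotation gave 1 gene symbol to 15310 features, hence 14506 genes, and all 65 genes described matched RefSeq GRCr8 by Entrez identifier. Promoter sequences are RefSeq's.

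Group means were fitted to all 9 arrays with limma 3.58.1 (lmFit, eBayes) in R 4.3.3, with Benjamini-Hochberg adjustment over 14506 genes, after a check on simulated data. A call needed an adjusted p under 0.05 in 1 direction under 4 scalings (as deposited, median centring, cyclic loess, quantile). Log2 differences are those of the deposited values unless loess is named. Every adjusted p comes from limma. P-values measure the spread between these samples, whose number limits the precision. Depth has no meaning for arrays.

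The 65 genes and all lists were chosen with earlier results of these data known. Named genes are Hoxa5, Hoxa7 and Tbx15, the called genes with the largest differences per comparison and family, every further called gene of the 65 that a count is broken down into, genes of a Hox cluster described in order, and up to 3 called genes per pathway list and comparison. Ezh1 was added as a relative of Ezh2, and Tbx3 for its loess difference between the Schwann cell groups. Lists covered partners of homeodomain proteins, Polycomb and trithorax regulators, retinoic acid signals, other patterning factors, and markers of Schwann cells, dermal mesenchyme, macrophages, keratinocytes, melanocytes, endothelium, smooth and skeletal muscle and adipocytes. Replicate numbers were checked for pairing and not used as a block. Alternatives were the scalings singly, genes at or above the median level, all features of a gene or their mean, a fit of the 2 groups compared alone, trended variances, array weights, a replicate block, a threshold of 0.01, a 2-fold minimum and leaving out each array. Since none of the 65 genes had more than 1 single-symbol feature, the alternatives of all features or their mean could hardly change a call among them. Leaving out both Schwann cell arrays 2 and scaling over all features were added after seeing the data. No array pair was identical.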

Additional observations from a re-analysis of the deposited data

How the results depend on the processing

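Each array was left out in turn. Then 0 genes were higher and 0 lower between SKP-derived and nerve Schwann cells in every such fit, 6 to 8 were higher and 10 to 15 lower in SKP-derived Schwann cells than in SKPs, and nerve Schwann cells had 5 to 8 higher and 7 to 10 lower, relative to SKPs. Between SKP-derived and nerve Schwann cells, 34 genes were lower as deposited alone, 1 (Hoxb8) under median centring alone and 1 (Hoxb8) with array weights. In SKP-derived Schwann cells against SKPs, 3 were higher and 4 lower among genes at or above the median level, 5 and 8 at an adjusted p under 0.01, and 3 and 9 with a 2-fold minimum, all of which test fewer genes or ask for more. In nerve Schwann cells against SKPs, 33 were higher as deposited alone and 16 under median centring alone, 18 were lower under cyclic loess alone and 19 under quantile scaling alone, and 3 were higher and 4 lower among genes at or above the median level. The Hoxa5 difference between SKP-derived and nerve Schwann cells, -0.35 as deposited, was 0.0034 under median centring, 0.17 under cyclic loess and 0.30 under quantile scaling, and without SKP-derived array 2 it was -0.82 (limma adjusted p = 0.0132). That of Tbx15, 0.76 as deposited, was -0.43 with array weights. The cause of these changes was not tested. With both Schwann cell arrays 2 left out, 6 genes were higher and 11 lower in SKP-derived Schwann cells, and nerve Schwann cells had 6 higher and 10 lower, relative to SKPs. With scaling over all features the counts were 6 and 20, and 5 and 9, in the same order.

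The labels number samples 1 to 3 in each group. Deviations from group means of same-numbered samples correlated at 0.07, 0.29 and 0.15 between SKP-derived and nerve Schwann cells. The values were -0.12, 0.05 and 0.03 for SKP-derived cells with SKPs, and 0.04, 0.07 and 0.19 for nerve Schwann cells with SKPs. Differently numbered samples correlated at -0.27 to 0.18, -0.09 to 0.08 and -0.16 to 0.12 in the same order. Whether the numbers pair the samples was not tested further, and pairing was not shown. With the replicate number as a block, 0 genes were higher and 0 lower between SKP-derived and nerve Schwann cells, 6 were higher and 12 lower in SKP-derived Schwann cells than in SKPs, and nerve Schwann cells had 6 higher and 9 lower, relative to SKPs. Signal over background was not analysed, so what low signal limits is not known beyond the 51 of 65 genes with a mean below the median gene.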
